A study of Mus musculus with 15 samples.

Results

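The mitosis and chromosome segregation genes described here are 35 genes chosen by name for their known work in cell division, from the kinases that start mitosis to the proteins that end it. A gene was measured where a probe set of the array carries its symbol and no other, and the probe set with the highest mean over the arrays stood for the gene. By that rule 34 of the 35 were measured, among 19938 genes in all. Ccnb1 is not analysed here. Only Top2a had a further probe set, which read between 1.79 and 2.15 on the 15 arrays and is not used. The rule itself uses no difference between groups, although the genes were chosen with earlier results of these data known.

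The arrays held RNA of whole livers from 15 C57BL/6 mice killed at 8 weeks; each mouse had its own array, and the 5 groups held 3 mice each. WT mice carried the floxed NEMO gene intact. Jnk1 KO and Jnk2 KO mice were globally Jnk1-/- or Jnk2-/-, while mice of the NEMO/Jnk1 DKO and the NEMO/Jnk2 DKO group joined these deletions to NEMOΔhepa, in which Cre driven by the albumin promoter (Alb-cre) deletes the loxP-flanked NEMO gene in hepatocytes, while other liver cells keep it. The labels do not say whether the single knockouts carry floxed NEMO. A group with NEMOΔhepa alone is not analysed here, and the effect of NEMO loss is therefore read on Jnk-null livers, where NEMO is the regulatory subunit of the kinase that activates NF-kB. All values are log2 expression levels, in which a difference of 1 is a factor of 2, and they are compared between arrays but not between genes. In RNA of a whole organ, a higher level of a gene in each cell and a higher number of cells that express it cannot be told apart.

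Mitosis begins when cyclin-bound Cdk1 becomes active. Chromosomes then condense, their kinetochores attach to the spindle under the watch of a checkpoint, and once it is satisfied the anaphase-promoting complex destroys the cyclins and frees the sister chromatids, after which the cell is cleft. Most of these genes are transcribed only in dividing cells, late in the cycle, through promoters that carry a cell cycle genes homology region (CHR), bound by the MuvB core complex with its repressor or activator partners, and CCAAT boxes, bound by NF-Y. Adult hepatocytes rarely divide, but reenter the cycle after injury.

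RefSeq windows on GRCm38.p6, each 300 bases long from 250 before to 50 after an annotated start, were found for 30 of the 35 genes. Foxm1, Ccna2, Aurkb, Tpx2 and Kif20a had none. The CHR was searched as TTTGAA and the CCAAT box as CCAAT, each on both strands, and matches of one motif may share bases with matches of the other. The CHR stood in the window of 22 of the 30 genes (73.3%), against 17.9% of all 32851 windows and 20.2% of the 27025 genes that have one. CCAAT also stood in 22 of the 30 (73.3%), against 37.4% of windows and 41.1% of genes. Both motifs occurred in 19 of the 30 (63.3%), against 6.95% of windows and 7.97% of genes, and 15 (50%) held CCAAT at least 2 times, against 11.7% and 13.3%. These matches describe letters in a window and are not binding sites.

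Windows of 5 genes are shown 5′ to 3′ in the direction of transcription, with matches in capitals, because these genes recur in the results. Ccnb2 (chr9:70421505-70421804, minus strand) holds CCAAT at 87, 54 and 21 bases before the start, evenly spaced, and a CHR 4 bases after it and another 167 before it. Cdc20 (chr4:118437294-118437593, minus strand) holds CCAAT 53 and 8 bases before the start and the CHR between them, 18 before it. Ect2, shown by 1 of its 2 windows (chr3:27153805-27154104, minus strand), holds CCAAT at 120, 79 and 23 bases before the start and a CHR 138 before and 15 after it. Ttk (chr9:83834439-83834738, plus strand) holds CCAAT 65 and 28 bases before the start and the CHR on the opposite strand 7 after it. Mad2l1 (chr6:66534971-66535270, plus strand) holds neither motif in this window.
Ccnb2: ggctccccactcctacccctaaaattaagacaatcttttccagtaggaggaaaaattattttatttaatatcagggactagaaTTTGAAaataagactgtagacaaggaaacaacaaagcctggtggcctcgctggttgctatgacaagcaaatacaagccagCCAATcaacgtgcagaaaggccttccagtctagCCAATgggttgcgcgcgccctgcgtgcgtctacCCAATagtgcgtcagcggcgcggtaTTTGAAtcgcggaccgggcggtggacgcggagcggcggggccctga
Cdc20: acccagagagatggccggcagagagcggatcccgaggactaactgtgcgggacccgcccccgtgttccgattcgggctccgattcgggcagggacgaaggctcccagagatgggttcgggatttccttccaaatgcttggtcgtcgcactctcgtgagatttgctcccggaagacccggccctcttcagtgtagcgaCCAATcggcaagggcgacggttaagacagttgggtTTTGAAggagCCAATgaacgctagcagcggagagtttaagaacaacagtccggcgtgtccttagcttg
Ect2: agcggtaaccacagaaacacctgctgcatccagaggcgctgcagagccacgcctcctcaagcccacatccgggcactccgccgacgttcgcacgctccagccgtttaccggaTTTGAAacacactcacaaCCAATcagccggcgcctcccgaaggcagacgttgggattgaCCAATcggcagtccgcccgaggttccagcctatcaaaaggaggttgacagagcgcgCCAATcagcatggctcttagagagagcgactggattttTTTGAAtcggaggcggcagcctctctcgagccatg
Ttk: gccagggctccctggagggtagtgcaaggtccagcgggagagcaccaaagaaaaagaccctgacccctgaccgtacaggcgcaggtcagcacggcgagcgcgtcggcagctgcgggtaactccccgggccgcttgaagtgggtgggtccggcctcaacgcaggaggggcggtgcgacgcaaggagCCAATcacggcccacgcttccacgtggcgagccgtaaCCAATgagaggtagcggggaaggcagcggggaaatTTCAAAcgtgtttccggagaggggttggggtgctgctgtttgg
Mad2l1: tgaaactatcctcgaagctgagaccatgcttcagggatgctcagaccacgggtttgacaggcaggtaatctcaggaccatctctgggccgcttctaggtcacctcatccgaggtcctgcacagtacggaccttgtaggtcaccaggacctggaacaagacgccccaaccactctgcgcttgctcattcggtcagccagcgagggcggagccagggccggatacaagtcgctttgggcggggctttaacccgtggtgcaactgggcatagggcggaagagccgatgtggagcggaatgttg

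**Figure D1:**
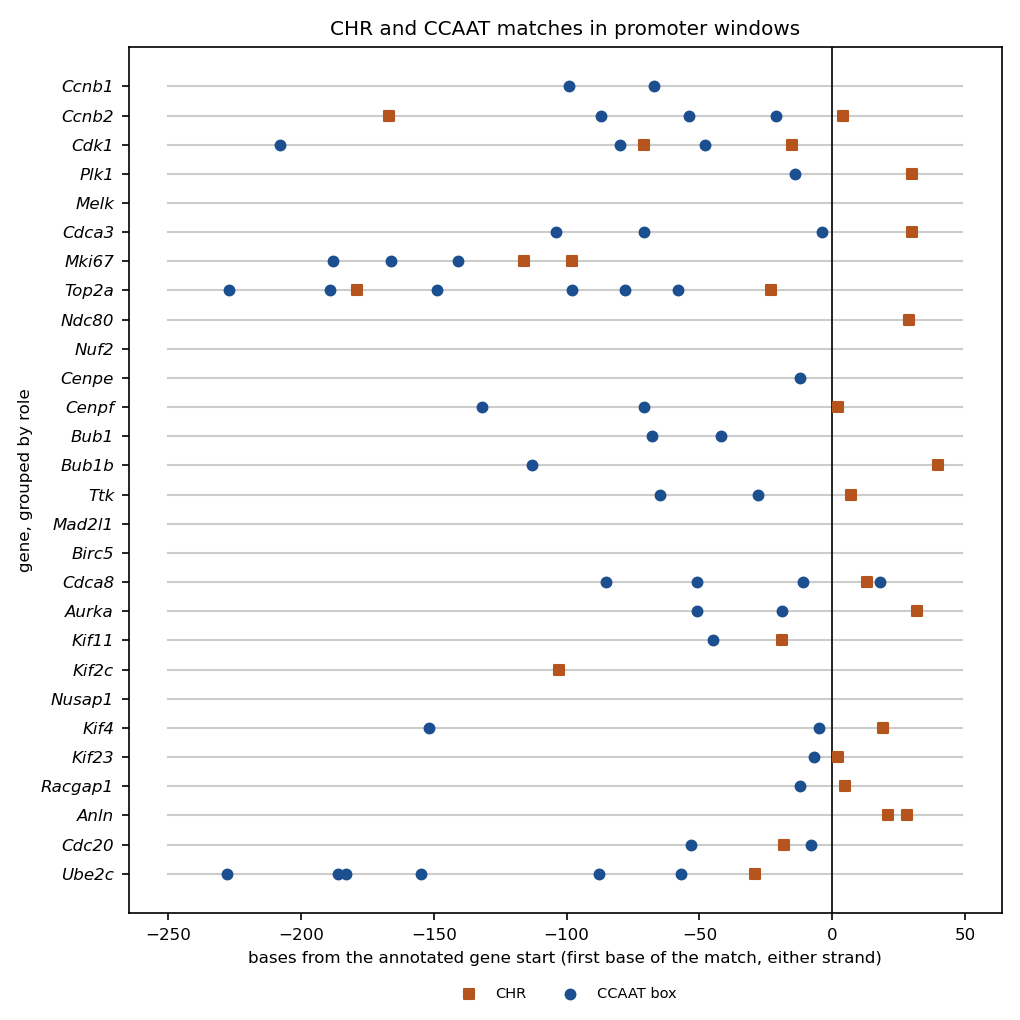
Positions of CHR (squares) and CCAAT (circles) matches on either strand in the windows of the 28 mitosis genes with 1 window, in bases from the annotated start at 0 (x axis), with 1 row per gene. CCAAT matches lie mostly within 100 bases before the start, and Melk, Nuf2, Mad2l1, Birc5 and Nusap1 hold no match of either motif.

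The deleted genes were read first. Mapk9, which encodes JNK2, lay between 2.39 and 3.28 in the 6 Jnk2-null livers and between 7.41 and 7.67 in the other 9. Mapk8, which encodes JNK1, read 5.87 to 6.53 in the 6 Jnk1-null livers and 6.58 to 7.03 in the others. Ikbkg, which encodes NEMO, read 6.18 to 6.85 in the 6 double knockouts and 7.03 to 7.41 in 7 of the 9 livers labelled NEMO-intact. The array labelled Jnk1 KO replicate 1 read 6.75 and the array labelled Jnk2 KO replicate 3 read 6.24, both within the range of the double knockouts. Ly6d and Mmp12 stood in the range of the double knockouts in the same 2 arrays. They are called the 2 doubted arrays, and counts of the 34 genes that passed a test are given with all 15 arrays as labelled and without these 2, a setting chosen after the data were seen. Leaving them out removes arrays that resemble the double knockouts, so the second count is not independent of the pattern. All mice are labelled male, but Xist read 8.68 to 9.17 in 3 arrays, those labelled Jnk1 KO replicate 1 and NEMO/Jnk1 DKO replicates 1 and 2, and 2.40 to 2.82 in the other 12.

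The mitosis genes stood higher in both kinds of double knockout liver than in WT. The mean log2 level over the 34 genes was 3.94, 3.76 and 3.99 in the 3 WT livers, 5.32, 5.06 and 5.25 in NEMO/Jnk1 DKO and 5.69, 4.96 and 5.57 in NEMO/Jnk2 DKO. It was 3.73 and 3.92 in Jnk1 KO replicates 2 and 3 and 4.20 and 3.76 in Jnk2 KO replicates 1 and 2, so that these 4 livers lay close to WT. The array labelled Jnk1 KO replicate 1 stood at 6.31, above all 6 double knockouts, and the array labelled Jnk2 KO replicate 3 at 4.87, just below them. NEMO/Jnk1 DKO replicate 3, without the Xist signal, lay between the other NEMO/Jnk1 DKO arrays, which carry it.

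**Figure D2:**
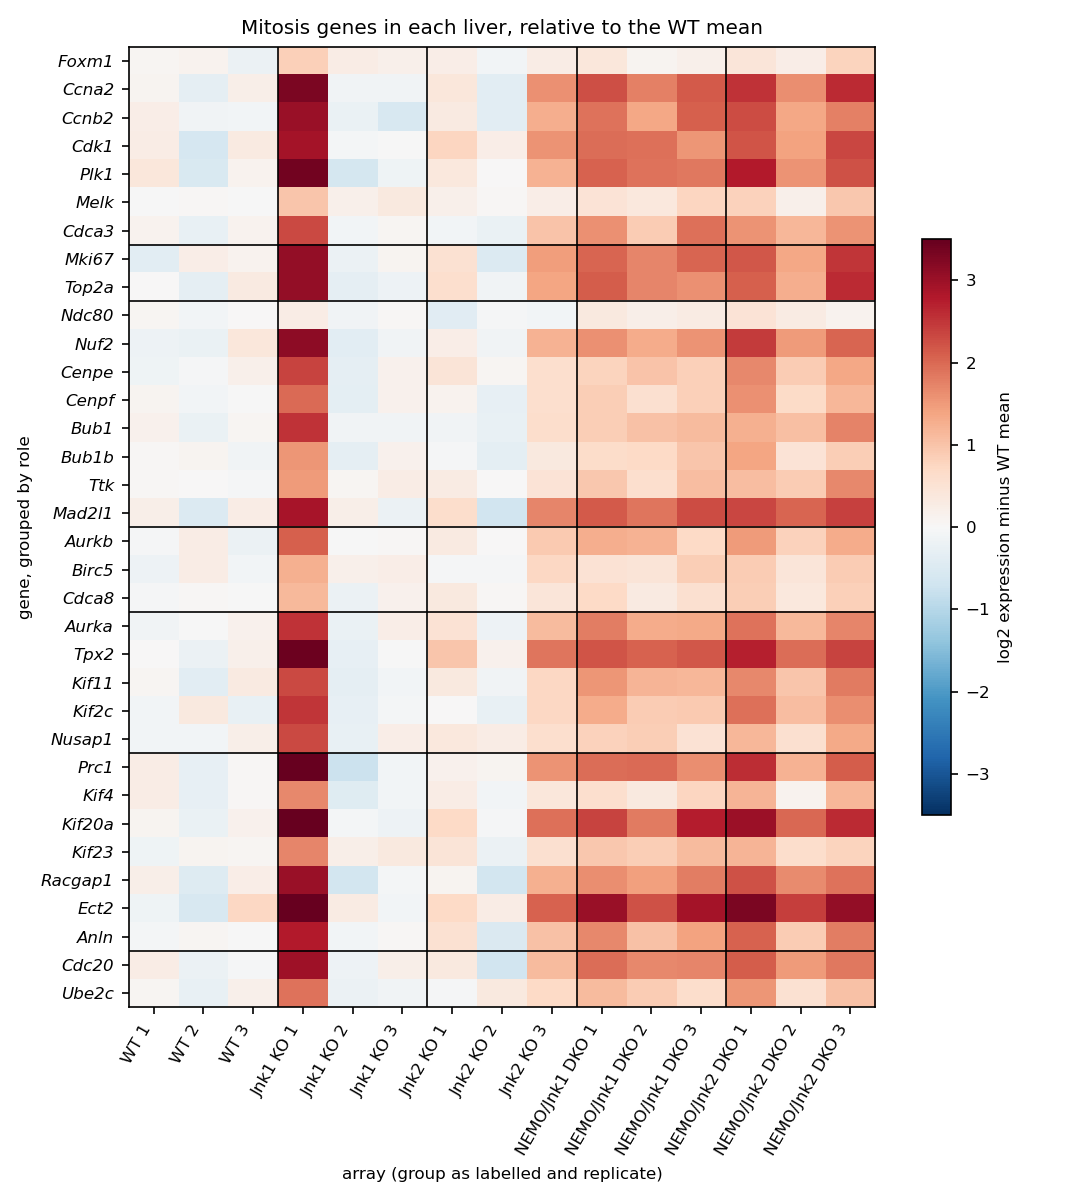
Log2 expression of the 34 measured mitosis genes (rows, grouped by role) in each of the 15 livers (columns, grouped as labelled), less the mean of the 3 WT arrays; red is higher and blue is lower than WT. The 6 double knockout columns are red in nearly every row, as are the columns of the arrays labelled Jnk1 KO replicate 1 (mean level 6.31) and, more weakly, Jnk2 KO replicate 3 (4.87).

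Between NEMO/Jnk1 DKO and WT, all 34 genes had a difference above 0, with a median of 1.34 and a range from 0.22 for Foxm1 to 2.72 for Ect2, while the median over all 19938 genes was -0.04. In the fit to all 15 arrays, limma called 0 of the 34 at an adjusted p under 0.05, where 0.0301% of all genes were called higher, and 24 of the 34 had an unadjusted p under 0.05 on the higher side, against 7.08% of all genes. Without the 2 doubted arrays 30 of the 34 passed, against 4.92% of all genes. The fit to the 6 arrays compared also called 30, against 4.38%. The 3 NEMO/Jnk1 DKO arrays lay above all 3 WT arrays for 33 of the 34 genes, against 11.5% of all genes, and Foxm1 was the exception. A term for the Xist pattern in the 15-array fit left 0 calls and a median of 0.43, and Foxm1 and Nusap1 were then below 0. With that term and without the 2 doubted arrays, 13 passed and the median was 1.25.

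Between NEMO/Jnk2 DKO and WT, the differences of all 34 genes were again above 0, with a median of 1.52 and a range from 0.30 for Ndc80 to 2.94 for Ect2. This comparison shares its WT arrays with the previous one. The fit to all 15 arrays called 1 of the 34, Ttk, against 0.873% of all genes, and 33 had an unadjusted p under 0.05, against 7.93%. Without the 2 doubted arrays 32 passed, against 5.75% of all genes, and in the fit to the 6 arrays compared 30 passed, against 5.37%. The arrays did not overlap for 33 of the 34 genes, against 11.8% of all genes, and Kif4 was the exception. Leaving out only the array labelled Jnk1 KO replicate 1 gave 31 calls here and 25 for NEMO/Jnk1 DKO.

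The count of calls moved with the SE, to which the spread within the single knockout groups contributes in the 15-array fit. For Ect2 the SE of the difference was 0.83 with all arrays and 0.31 without the 2 doubted arrays, while the difference itself was the same. Across both kinds of double knockout, 30 genes passed in both comparisons without the 2 doubted arrays. Foxm1, Melk, Ndc80 and Kif4 did not pass in NEMO/Jnk1 DKO, and Foxm1 and Ndc80 did not in NEMO/Jnk2 DKO. All 6 double knockout arrays lay above all 3 WT arrays for 32 of the 34 genes, against 8.03% of all genes, and above the 7 undoubted NEMO-intact arrays for 30, against 4.68%.

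**Figure D3:**
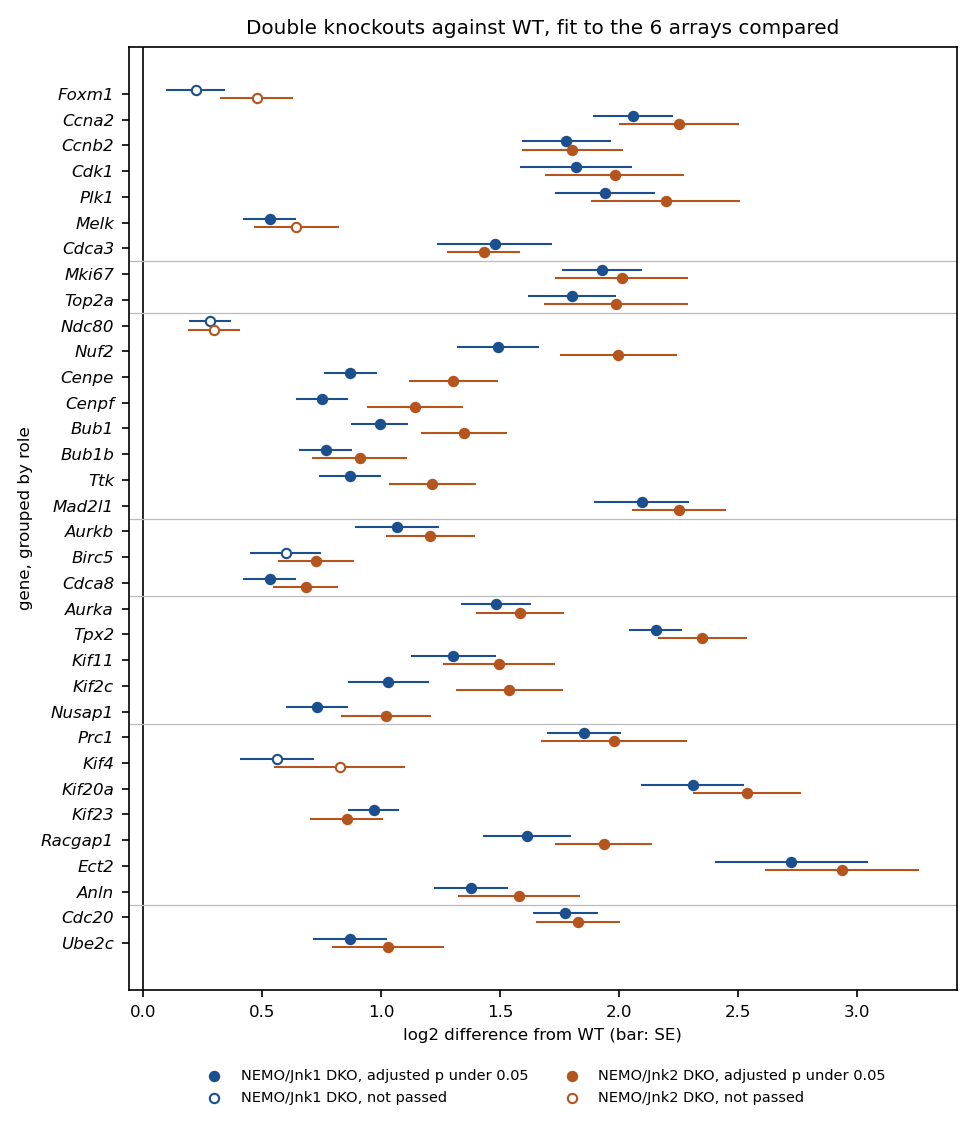
Log2 difference from WT (x axis; bars are 1 SE) of the 34 mitosis genes in NEMO/Jnk1 DKO (blue) and NEMO/Jnk2 DKO (orange), from fits to the 6 arrays compared, n = 3 per group; filled points have a limma adjusted p under 0.05. In each comparison 30 of the 34 points are filled, and Ect2 lies farthest to the right, at 2.72 and 2.94.

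Of the 7 measured regulators of mitotic entry, 5 passed in the NEMO/Jnk1 DKO livers and 6 in the NEMO/Jnk2 DKO livers without the 2 doubted arrays, and 0 in either with all 15. For this role and the roles below, the shares of all genes called higher were 4.92% and 5.75% without the 2 doubted arrays. With all 15 arrays these shares were 0.0301% and 0.873%. Cdk1, the kinase that drives entry, read 4.78, 3.93 and 4.82 in WT, 6.48, 6.45 and 6.06 in the NEMO/Jnk1 DKO livers and 6.72, 5.92 and 6.83 in the NEMO/Jnk2 DKO livers. It read 4.43 and 4.49 in Jnk1 KO replicates 2 and 3 and 5.26 and 4.75 in Jnk2 KO replicates 1 and 2, and 7.43 and 6.09 in the arrays labelled Jnk1 KO replicate 1 and Jnk2 KO replicate 3. Both kinds of double knockout lay wholly above WT. The log2 difference was 1.82 (SE 0.62) for NEMO/Jnk1 DKO and 1.98 (SE 0.62) for NEMO/Jnk2 DKO, where each SE here and below is of the fit to all 15 arrays, with limma adjusted p = 0.179 and 0.103 over all 15 arrays, and 0.00106 and 0.000395 without the 2 doubted arrays. Ccnb2, a B-type cyclin that activates Cdk1, read 4.91, 4.58 and 4.58 in WT, 6.58, 6.05 and 6.78 in the NEMO/Jnk1 DKO livers and 6.97, 6.05 and 6.46 in the NEMO/Jnk2 DKO livers, against 4.47 and 4.14 in Jnk1 KO replicates 2 and 3 and 5.01 and 4.31 in Jnk2 KO replicates 1 and 2. The 2 doubted arrays read 7.71 and 5.97, and the difference from WT was 1.78 (SE 0.70) for NEMO/Jnk1 DKO and 1.80 (SE 0.70) for NEMO/Jnk2 DKO. The lowest double knockout value of Ccnb2, 6.05, was above the highest of the 7 undoubted NEMO-intact livers, 5.01. Cdca3, an F-box protein that promotes entry by targeting the inhibitory kinase Wee1, read 4.95, 4.56 and 4.95 in WT, 6.43, 5.72 and 6.75 in the NEMO/Jnk1 DKO livers and 6.39, 5.97 and 6.40 in the NEMO/Jnk2 DKO livers, without overlap, and differed by 1.48 and 1.43.

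Among the other entry genes, Ccna2, the cyclin of DNA replication and early mitosis, differed from WT by 2.06 (SE 0.72) for NEMO/Jnk1 DKO and 2.25 (SE 0.72) for NEMO/Jnk2 DKO. Plk1, the polo kinase that acts from centrosome maturation to cytokinesis, differed by 1.94 (SE 0.75) for NEMO/Jnk1 DKO and 2.20 (SE 0.75) for NEMO/Jnk2 DKO, and read 7.68 and 5.53 in the 2 doubted arrays. Foxm1 and Melk had the smallest differences of this role. Foxm1, a transcription factor that activates late cell cycle genes, read 3.78, 3.83 and 3.49 in WT, 4.10, 3.79 and 3.88 in the NEMO/Jnk1 DKO livers and 4.13, 3.93 and 4.47 in the NEMO/Jnk2 DKO livers, so that NEMO/Jnk1 DKO overlapped WT. Its difference from WT was 0.22 and 0.48, and the limma adjusted p did not pass without the 2 doubted arrays (0.44 and 0.056). Melk, a kinase of dividing and progenitor cells, differed by 0.53 and 0.65, and its call changed with the fit. Without the 2 doubted arrays it passed for NEMO/Jnk2 DKO and not for NEMO/Jnk1 DKO (limma adjusted p = 0.0224 and 0.0658), while the fits to the 6 arrays compared gave the reverse (0.0604 and 0.0271). The low readings of Foxm1, between 3.49 and 4.53 over the 15 livers, lie near the 40th percentile of all values, 3.69.

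Both chromosome genes passed in both comparisons without the 2 doubted arrays, and 0 with all 15. Mki67, the coat protein of mitotic chromosomes known as the proliferation marker Ki-67, read 3.86, 4.46 and 4.37 in WT, 6.25, 5.94 and 6.27 in the NEMO/Jnk1 DKO livers and 6.41, 5.57 and 6.73 in the NEMO/Jnk2 DKO livers. It read 4.03 and 4.33 in Jnk1 KO replicates 2 and 3 and 4.77 and 3.74 in Jnk2 KO replicates 1 and 2, and 7.30 and 5.70 in the 2 doubted arrays. The double knockouts lay wholly above the 7 undoubted NEMO-intact livers, and the difference from WT was 1.93 (SE 0.68) for NEMO/Jnk1 DKO and 2.01 (SE 0.68) for NEMO/Jnk2 DKO, with limma adjusted p = 0.189 and 0.125 over all 15 arrays, and 0.00138 and 0.000745 without the 2 doubted arrays. Top2a, the topoisomerase that untangles sister chromatids, read 4.07, 3.72 and 4.35 in WT, 6.16, 5.76 and 5.64 in the NEMO/Jnk1 DKO livers and 6.13, 5.32 and 6.65 in the NEMO/Jnk2 DKO livers, against 3.72 and 3.88 in Jnk1 KO replicates 2 and 3 and 4.65 and 3.94 in Jnk2 KO replicates 1 and 2. Its difference from WT was 1.80 (SE 0.69) for NEMO/Jnk1 DKO and 1.99 (SE 0.69) for NEMO/Jnk2 DKO, without overlap.

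Of the 8 kinetochore and checkpoint genes, 7 passed in each double knockout without the 2 doubted arrays, all but Ndc80. With all 15 arrays Ttk, the kinase also called Mps1 that starts checkpoint signalling, was the 1 member that passed in NEMO/Jnk2 DKO. Ttk read 2.74, 2.71 and 2.66 in WT, 3.64, 3.29 and 3.79 in the NEMO/Jnk1 DKO livers and 3.78, 3.60 and 4.39 in the NEMO/Jnk2 DKO livers; the WT livers were close together. It read 2.77 and 2.97 in Jnk1 KO replicates 2 and 3 and 3.0 and 2.73 in Jnk2 KO replicates 1 and 2, and 4.19 and 3.19 in the 2 doubted arrays. Its difference from WT was 0.87 (SE 0.30) for NEMO/Jnk1 DKO and 1.22 (SE 0.30) for NEMO/Jnk2 DKO, with limma adjusted p = 0.182 and 0.0483 over all 15 arrays, and 0.00953 and 0.000843 without the 2 doubted arrays. Leaving out 1 array ended this call for 11 of the 15 arrays, with limma adjusted p = 0.0545 to 0.151, and kept it for the 3 Jnk1 KO arrays and the array labelled Jnk2 KO replicate 3. Signal near background also limits this call. Ttk was above 3.69, the value given above for Foxm1, on 4 of the 15 arrays. Every WT liver and the NEMO/Jnk2 DKO liver that read 3.60 lay below that value.

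Mad2l1, which encodes the checkpoint protein Mad2 that holds back the anaphase-promoting complex, read 5.28, 4.61 and 5.35 in WT, 7.23, 6.94 and 7.35 in the NEMO/Jnk1 DKO livers and 7.42, 7.11 and 7.47 in the NEMO/Jnk2 DKO livers. It read 5.30 and 4.88 in Jnk1 KO replicates 2 and 3 and 5.69 and 4.40 in Jnk2 KO replicates 1 and 2, and its difference from WT was 2.10 (SE 0.66) for NEMO/Jnk1 DKO and 2.25 (SE 0.66) for NEMO/Jnk2 DKO, the largest of the role. Both double knockout groups lay wholly above all 7 undoubted NEMO-intact livers. Nuf2, a subunit of the Ndc80 complex that binds microtubules, read 3.35, 3.30 and 3.92 in WT, 5.13, 4.83 and 5.09 in the NEMO/Jnk1 DKO livers and 5.98, 5.02 and 5.56 in the NEMO/Jnk2 DKO livers, and differed by 1.49 and 2.00. Bub1b, the checkpoint protein BubR1, differed by less, 0.77 and 0.91, and read 4.07, 4.12 and 3.90 in WT, 4.67, 4.73 and 4.99 in the NEMO/Jnk1 DKO livers and 5.41, 4.51 and 4.90 in the NEMO/Jnk2 DKO livers. Its 3 NEMO/Jnk2 DKO livers were spread more widely but stayed above WT. The differences of Bub1, a checkpoint kinase, Cenpe, a kinetochore motor, and Cenpf, a kinetochore protein of late cycle, lay between 0.75 and 1.35. Ndc80 read at most 3.50 on any array, below the 40th percentile of all values on each of them, and differed from WT by 0.28 and 0.30.

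The chromosomal passenger complex corrects faulty attachments and later marks the cleavage site. All 3 of its members passed in both comparisons without the 2 doubted arrays and 0 with all 15, and their differences were among the smaller ones. Aurkb, its kinase, read 4.35, 4.65 and 4.19 in WT, 5.68, 5.61 and 5.10 in the NEMO/Jnk1 DKO livers and 5.90, 5.21 and 5.71 in the NEMO/Jnk2 DKO livers, and differed from WT by 1.07 (SE 0.44) for NEMO/Jnk1 DKO and 1.21 (SE 0.44) for NEMO/Jnk2 DKO. It read 4.39 and 4.44 in Jnk1 KO replicates 2 and 3 and 4.72 and 4.41 in Jnk2 KO replicates 1 and 2, and 6.49 and 5.31 in the 2 doubted arrays. Birc5, the survivin subunit, read 3.72, 4.17 and 3.80 in WT, 4.40, 4.34 and 4.75 in the NEMO/Jnk1 DKO livers and 4.78, 4.32 and 4.78 in the NEMO/Jnk2 DKO livers, which left a narrow gap above the highest WT liver. Its difference was 0.60 and 0.73. Cdca8, the borealin subunit, read 3.83, 3.91 and 3.86 in WT, 4.58, 4.19 and 4.44 in the NEMO/Jnk1 DKO livers and 4.73, 4.24 and 4.69 in the NEMO/Jnk2 DKO livers, and differed by 0.53 and 0.68. For Cdca8, Jnk2 KO replicate 1 at 4.20 reached the lowest double knockout, 4.19.

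The 5 spindle genes all passed in both comparisons without the 2 doubted arrays, and 0 with all 15. Tpx2, which activates Aurora A and nucleates microtubules near chromosomes, read 3.97, 3.76 and 4.14 in WT, 6.16, 6.03 and 6.14 in the NEMO/Jnk1 DKO livers and 6.69, 5.91 and 6.32 in the NEMO/Jnk2 DKO livers, with the NEMO/Jnk1 DKO livers close together. It read 3.68 and 3.96 in Jnk1 KO replicates 2 and 3 and 4.94 and 4.11 in Jnk2 KO replicates 1 and 2, and 7.40 and 5.84 in the 2 doubted arrays. Its difference from WT was 2.15 (SE 0.71) for NEMO/Jnk1 DKO and 2.35 (SE 0.71) for NEMO/Jnk2 DKO, with limma adjusted p = 0.167 and 0.094 over all 15 arrays, and 9.72e-05 and 3.01e-05 without the 2 doubted arrays. Aurka, the Aurora A kinase of the spindle poles, read 4.49, 4.61 and 4.77 in WT, 6.43, 5.93 and 5.96 in the NEMO/Jnk1 DKO livers and 6.53, 5.76 and 6.34 in the NEMO/Jnk2 DKO livers, and differed by 1.48 (SE 0.53) for NEMO/Jnk1 DKO and 1.58 (SE 0.53) for NEMO/Jnk2 DKO. Kif2c, a kinesin that takes microtubules apart at centromeres, read 3.83, 4.25 and 3.66 in WT, 5.20, 4.81 and 4.82 in the NEMO/Jnk1 DKO livers and 5.83, 4.98 and 5.53 in the NEMO/Jnk2 DKO livers, and differed by 1.03 and 1.54. Kif11, the kinesin that pushes the poles apart, and Nusap1, a spindle microtubule protein, differed by 1.30 and 0.73 in NEMO/Jnk1 DKO and by 1.49 and 1.02 in NEMO/Jnk2 DKO.

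The central spindle and cytokinesis genes held the largest difference of the 34 in both comparisons. Of the 7, 6 passed in the NEMO/Jnk1 DKO livers and 7 in the NEMO/Jnk2 DKO livers without the 2 doubted arrays, and 0 with all 15. Ect2, the exchange factor that starts furrowing at the cleavage site, read 4.0, 3.59 and 4.86 in WT, 7.16, 6.38 and 7.07 in the NEMO/Jnk1 DKO livers and 7.45, 6.58 and 7.22 in the NEMO/Jnk2 DKO livers. It read 4.43 and 4.05 in Jnk1 KO replicates 2 and 3 and 4.86 and 4.42 in Jnk2 KO replicates 1 and 2, and 8.23 and 6.22 in the 2 doubted arrays. WT replicate 3 was the highest of the WT livers, and the double knockouts lay wholly above it. The difference from WT was 2.72 (SE 0.83) for NEMO/Jnk1 DKO and 2.94 (SE 0.83) for NEMO/Jnk2 DKO, a fold of 6.60 and 7.66, with limma adjusted p = 0.148 and 0.0755 over all 15 arrays, and 0.000273 and 8.86e-05 without the 2 doubted arrays.

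Racgap1, the subunit of the centralspindlin complex that recruits Ect2, read 4.77, 4.12 and 4.78 in WT, 6.18, 5.98 and 6.35 in the NEMO/Jnk1 DKO livers and 6.79, 6.22 and 6.47 in the NEMO/Jnk2 DKO livers, and differed from WT by 1.61 (SE 0.70) for NEMO/Jnk1 DKO and 1.94 (SE 0.70) for NEMO/Jnk2 DKO. Kif20a, a kinesin of the central spindle, read 4.22, 3.89 and 4.29 in WT, 6.51, 5.95 and 6.87 in the NEMO/Jnk1 DKO livers and 7.12, 6.14 and 6.76 in the NEMO/Jnk2 DKO livers. It differed by 2.31 (SE 0.76) for NEMO/Jnk1 DKO and 2.54 (SE 0.76) for NEMO/Jnk2 DKO, and its 6 double knockout livers lay wholly above the 7 undoubted NEMO-intact ones, the highest of which read 4.84. Prc1, which bundles the central spindle, and Anln, the ring protein anillin, differed by 1.85 and 1.38 in NEMO/Jnk1 DKO and by 1.98 and 1.58 in NEMO/Jnk2 DKO. Kif23, the motor of centralspindlin, differed by 0.97 and 0.86, and was, with Cdca3, 1 of 2 genes whose difference was larger in NEMO/Jnk1 DKO. Kif4, a chromosome-bound kinesin, read 3.34, 2.80 and 3.11 in WT, 3.68, 3.43 and 3.83 in the NEMO/Jnk1 DKO livers and 4.26, 3.21 and 4.26 in the NEMO/Jnk2 DKO livers, where replicate 2 of NEMO/Jnk2 DKO lay among the WT values. It passed in NEMO/Jnk2 DKO only without the 2 doubted arrays (limma adjusted p = 0.048).

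Cdc20 and Ube2c, which work with the anaphase-promoting complex, passed in both comparisons without the 2 doubted arrays, and 0 with all 15. Cdc20, which brings substrates to the complex once the checkpoint is satisfied, read 5.49, 5.01 and 5.18 in WT, 7.17, 6.91 and 6.93 in the NEMO/Jnk1 DKO livers and 7.36, 6.73 and 7.08 in the NEMO/Jnk2 DKO livers. It read 5.05 and 5.44 in Jnk1 KO replicates 2 and 3 and 5.56 and 4.54 in Jnk2 KO replicates 1 and 2, and 8.20 and 6.33 in the 2 doubted arrays. The difference from WT was 1.77 (SE 0.62) for NEMO/Jnk1 DKO and 1.83 (SE 0.62) for NEMO/Jnk2 DKO, with limma adjusted p = 0.187 and 0.128 over all 15 arrays, and 0.00058 and 0.000291 without the 2 doubted arrays. Ube2c, the ubiquitin-conjugating enzyme of the complex, read 4.06, 3.73 and 4.18 in WT, 5.10, 4.87 and 4.62 in the NEMO/Jnk1 DKO livers and 5.53, 4.51 and 5.03 in the NEMO/Jnk2 DKO livers, and differed by 0.87 and 1.03. By contrast, the subunits of the complex itself and of cohesin, which are not confined to dividing cells, stayed near 0, with medians of -0.03 and -0.01 over 23 genes. With all 15 arrays 0 of the 23 passed in limma, where 0.0301% and 0.873% of all genes were called higher. On the higher side 1 and 3 had an unadjusted p under 0.05, against 7.08% and 7.93% of all genes. Without the 2 doubted arrays 0 of these 23 passed upward and 1 downward (Anapc11, -0.42) in NEMO/Jnk1 DKO, and 1 upward (Cdc23, 0.39) and 2 downward (Stag2, -0.45, and Anapc13, -0.31) in NEMO/Jnk2 DKO. Over all genes 4.92% and 5.75% passed upward in that fit, and 2.99% and 4.86% downward.

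The 2 doubted arrays stood apart for the mitosis genes in different degrees. The array labelled Jnk1 KO replicate 1 was the highest of the 15 for 32 of the 34 genes, all but Ndc80 and Ttk, where it was the highest for 9.30% of all genes. It lay above all 6 double knockouts for the same 32, against 18.8% of all genes. The array labelled Jnk2 KO replicate 3 lay above the 7 undoubted NEMO-intact livers for 32 of the 34, all but Melk and Ndc80, against 16.1% of all genes. For 17 of the 34 it lay above those 7 and below all 6 double knockouts, against 0.542% of all genes. Ccna2 shows both, with 7.17 and 5.47 in these arrays, at most 4.27 in the 7 others and 5.50 to 6.48 in the double knockouts. Within NEMO/Jnk2 DKO, replicate 2 was the lowest for 33 of the 34 genes, against 28.7% of all genes. Within Jnk2 KO, replicate 2 was the lowest for 32, against 28.8%.

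Neither single Jnk deletion gave a call. Between Jnk1 KO and WT, limma called 0 of the 34 with all arrays (0.00502% of all genes were called higher; 3 of the 34 had an unadjusted p under 0.05, against 1.61%), with a median difference of 0.76. Once the doubted arrays were left out the median was -0.06, from -0.43 for Prc1 to 0.28 for Kif23. There were then 0 calls (0.00502% of all genes) and 0 at an unadjusted p under 0.05 (1.54% of all genes on the higher side). The 95% interval for Mki67 then ran from -0.75 to 0.66 and that for Ect2 from -0.66 to 0.84. Both intervals rest on leaving out the array labelled Jnk1 KO replicate 1, which read 7.30 for Mki67 and 8.23 for Ect2. Between Jnk2 KO and WT, limma called 0 of the 34, against 0.166% of all genes called higher, with 0 at an unadjusted p under 0.05 (4.23% of all genes) and a median of 0.34. Without the doubted arrays the median was 0.09 and 0 were called (0.682% of all genes). On the higher side 5.52% of all genes then had an unadjusted p under 0.05, and 1 of the 34 had one. That gene was Tpx2, at 0.57 (95% interval 0.06 to 1.07, limma adjusted p = 0.323). Tpx2 read 4.94 in Jnk2 KO replicate 1 and 4.11 in replicate 2. Jnk1 KO and Jnk2 KO differed by a median of 0.36 with all arrays and -0.14 without the 2. There were 0 calls in limma in both fits (0.0451% and 0.135% of all genes were called higher). Of the 34 genes, 0 and 1 had an unadjusted p under 0.05. On the higher side 3.68% and 4.68% of all genes had one, and the share on the lower side was not counted.

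Loss of NEMO was also read against the matching single knockout. Between NEMO/Jnk1 DKO and Jnk1 KO, limma called 0 of the 34 with all arrays, where 0% of all genes were called and 0 of the 34 had an unadjusted p under 0.05 (2.32% of all genes), and the median difference was 0.55. With both doubted arrays left out, the median was 1.45 and 25 passed, against 4.05% of all genes. Cdc20 then differed by 1.75 (limma adjusted p = 0.00161), Ect2 by 2.63 (0.000834) and Tpx2 by 2.29 (0.000204). Between NEMO/Jnk2 DKO and Jnk2 KO, 0 passed in limma with all arrays, against 0.00502% of all genes, but 18 had an unadjusted p under 0.05, against 3.73%, and the median was 1.20. As labelled, NEMO/Jnk2 DKO lay wholly above Jnk2 KO for 21 of the 34 genes, against 5.28% of all genes, and NEMO/Jnk1 DKO lay wholly above Jnk1 KO for 0 of the 34, against 2.52%. Without the doubted arrays the median was 1.51 and 28 passed, against 3.88%. Mad2l1 then differed by 2.29 (limma adjusted p = 0.00108) and Ccna2 by 2.24 (0.000704).

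The mean NEMO effect over both Jnk-null backgrounds had a median of 0.87 over the 34 genes with all arrays, with 0 called by limma, against 0% of all genes, and 20 at an unadjusted p under 0.05, against 5.36%. Without the doubted arrays it was 1.45 and 32 passed, against 7.68% of all genes. The difference of the NEMO effects between the Jnk1-null and the Jnk2-null background had a median of -0.53 as labelled and -0.05 without the doubted arrays. Leaving out 1 array moved it from -1.01, without Jnk1 KO replicate 2, to 0.22, without the array labelled Jnk1 KO replicate 1, which turned its sign. It gave 0 calls in either setting, 0 at an unadjusted p under 0.05 in both, and 0% and 0.01% of all genes called higher.

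Between the 2 kinds of double knockout, limma called 0 of the 34 genes in any setting tried, where 0.0602% of all genes were called lower in NEMO/Jnk1 DKO with all arrays and 0.14% without the 2 doubted. None had an unadjusted p under 0.05 with all arrays, and 4 had one without the doubted arrays. On the higher side 3.27% and 4.32% of all genes had one in these fits. The share on the lower side was not counted, so the count of 4 is not read as a result. The difference of NEMO/Jnk1 DKO from NEMO/Jnk2 DKO was below 0 for 32 of the 34, with a median of -0.19 and a range from -0.51 for Kif2c to 0.11 for Kif23. The median was -0.45 without NEMO/Jnk2 DKO replicate 2, -0.09 without its replicate 3 and -0.04 without its replicate 1. The arrays of both groups overlapped for all 34 genes, where 5.51% of all genes lay wholly lower. Without the doubted arrays the 95% interval of the difference ran from -0.71 to 0.55 for Mki67, from -0.55 to 0.45 for Cdc20, and from -0.83 to -0.04 for Cenpe (-0.43, limma adjusted p = 0.596). The intervals of Mki67 and Cdc20 span 0 and leave room for a difference of either direction, and do not show that the 2 groups are alike.

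Other cell cycle genes were read from lists chosen by function, with the share of called genes given above (4.92% and 5.75% higher; 2.99% and 4.86% were called lower) as background. With all 15 arrays Haus8, a spindle gene (0.83 in NEMO/Jnk2 DKO, limma adjusted p = 0.0452), was the only call among the 5 lists of other kinetochore, spindle, cytokinesis, chromosome and entry genes. Without the 2 doubted arrays 9 of 37 other kinetochore genes passed upward in NEMO/Jnk1 DKO, and 16 did in NEMO/Jnk2 DKO, led by Knl1, the scaffold that carries Bub1, at 1.52 and 1.79. Of 29 other spindle and centrosome genes 12 and 18 passed, with Hmmr at 1.45 and 1.68 and Nek2, a centrosome kinase, at 1.22 and 1.58. Of 9 other cytokinesis genes 6 and 7 passed, with Arhgap11a at 1.96 and 2.18. Of 19 condensin, cohesion and chromosome genes 8 and 11 passed, with Esco2, an acetyltransferase of cohesin, at 1.44 and 1.82. Of 18 other entry regulators 5 and 6 passed, with Wee1, which restrains Cdk1, at 1.28 and 0.94. The medians of these lists, from 0.29 to 0.82, were below those of the 34 genes.

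DNA replication genes, which act before mitosis, passed upward in 8 of 25 and 10 of 25 without the 2 doubted arrays. The shares over all genes were 4.92% and 5.75%, and the medians of the list were 0.43 and 0.54. Mcm6, a subunit of the replicative helicase, differed from WT by 2.04 in both (limma adjusted p = 0.0169 and 0.0127 without the 2 doubted arrays). Rrm2, of ribonucleotide reductase, differed by 1.53 and 1.54, and in NEMO/Jnk2 DKO it passed with all arrays too (limma adjusted p = 0.0416). Mcm10, which starts replication forks, passed downward in NEMO/Jnk1 DKO at -1.28. Of 22 transcription regulators of mitotic genes, without the 2 doubted arrays 1 passed upward and 2 downward in NEMO/Jnk1 DKO, and 2 upward and 3 downward in NEMO/Jnk2 DKO. Over all genes 4.92% and 5.75% passed upward, and 2.99% and 4.86% downward. The medians of this list were -0.01 and 0.07, so that it did not move as a whole. The pocket proteins of the MuvB-containing repressor moved in opposite directions. Rbl2, its member in resting cells (p130), read 7.63 to 7.81 in WT and 6.91 to 7.14 over the 6 double knockouts, and its fall of -0.70 in each passed without the 2 doubted arrays (limma adjusted p = 0.000493 and 0.000296) and, in NEMO/Jnk2 DKO, with all arrays too (0.0197). Rbl1, the member found in cycling cells (p107), read 4.38, 4.01 and 4.31 in WT, 5.52, 5.20 and 5.37 in the NEMO/Jnk1 DKO livers and 5.24, 5.03 and 5.48 in the NEMO/Jnk2 DKO livers, and rose by 1.13 and 1.02 without the 2 doubted arrays (limma adjusted p = 0.000525 and 0.000657). Both genes separated the 6 double knockouts from WT without overlap, and the 2 doubted arrays read 5.92 and 5.17 for Rbl1 and 7.16 and 7.11 for Rbl2. E2f8, a repressor made in cycling and polyploid liver cells, passed in NEMO/Jnk2 DKO, at 0.92 without the 2 doubted arrays (limma adjusted p = 0.00133).

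Macrophage and stellate cell markers stood higher in the same livers as the mitosis genes. All 9 hepatocyte markers were above 3.69 on every array, and their summed log2 level lay between 109.6 and 111.2 in WT and between 108.6 and 109.8 in the double knockouts. These ranges overlapped only between 109.6 and 109.8, with the double knockouts on the lower side. The sums do not show that single hepatocyte markers were unchanged. Of 12 macrophage markers 9 and 8 passed upward in NEMO/Jnk1 DKO and NEMO/Jnk2 DKO without the 2 doubted arrays, against 4.92% and 5.75% of all genes, led by Marco at 2.06 and 1.77, and their summed level was 69.3 to 76.6 in WT, 83.3 to 90.4 and 82.2 to 88.4. Of 10 stellate cell markers 6 and 5 passed against the same shares, with Col1a1 at 1.54 and 1.77, and the sums were 68.5 to 70.2, 79.1 to 81.2 and 76.6 to 80.1. In the arrays labelled Jnk1 KO replicate 1 and Jnk2 KO replicate 3 the mean macrophage level was 7.26 and 6.92 and the mean stellate level 8.20 and 8.22. With all 15 arrays 0 and 1 of the macrophage and 0 of the stellate markers passed, although 10 and 9 of the macrophage and 4 and 3 of the stellate markers had an unadjusted p under 0.05 in limma, against 7.08% and 7.93% of all genes. The part of these cells in the mitosis gene levels was not tested. The T cell, B cell, neutrophil, erythroid, endothelial and cholangiocyte lists held 10, 6, 10, 7, 8 and 6 measured markers. At most 2 markers of each list passed upward in either comparison without the 2 doubted arrays, against 4.92% and 5.75% of all genes. In lists this small, 2 calls are a larger share than that over all genes. These counts therefore do not show that the lists were unchanged. With all 15 arrays limma called 0 of them. At most 4 of a list were then higher at an unadjusted p under 0.05, against 7.08% and 7.93% of all genes. The stellate list also reached 4 in this fit. Cd3d, Gzma, Klrb1c and Ncr1 of the T and NK cell list, Ms4a1 and Cd79a of the B cell list, Ly6g, Ngp and Ltf of the neutrophil list, Epb42 and Rhag of the erythroid list and Cftr of the cholangiocyte list were never above 3.69.

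**Figure D4:**
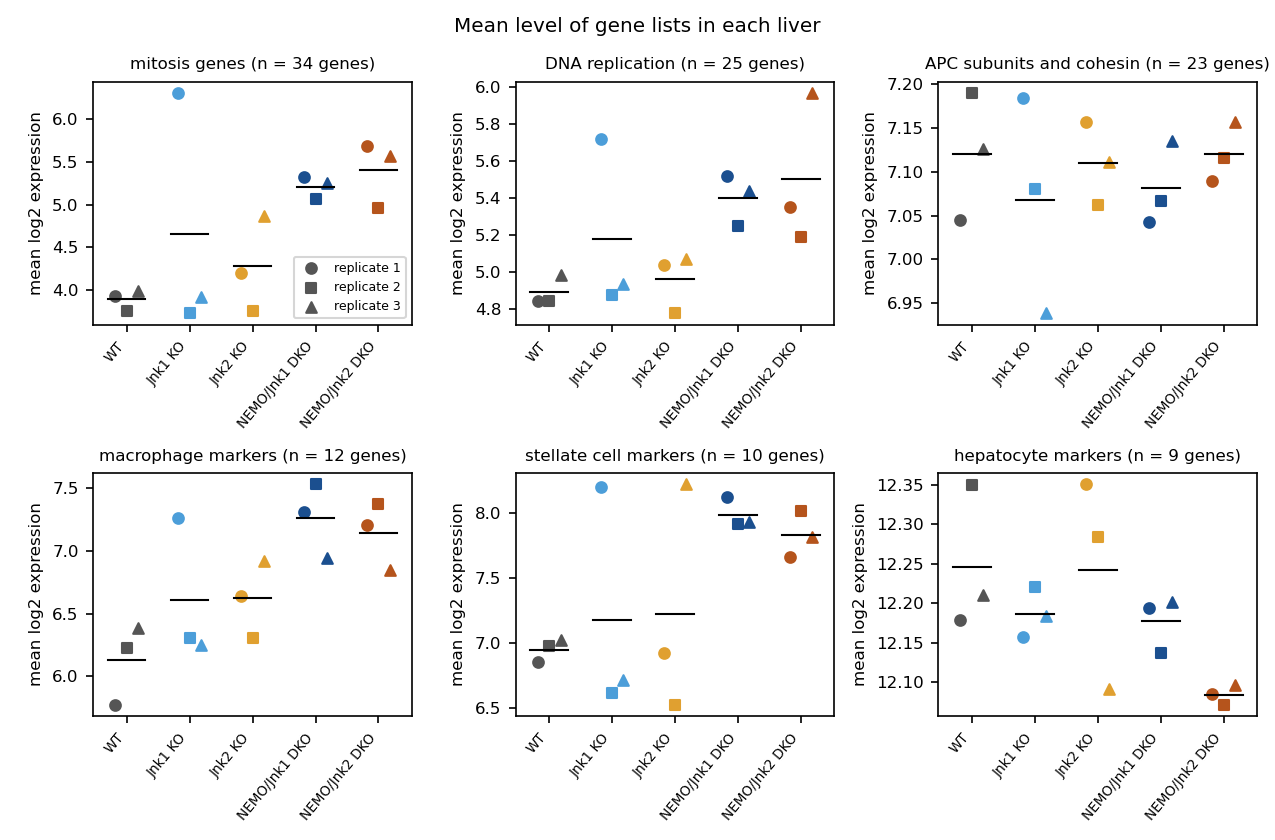
Mean log2 expression in each liver (points, marked by replicate) of 6 gene lists, with a line at the mean of each group of 3 as labelled; the y axes differ between panels and do not start at 0. The mitosis, DNA replication, macrophage and stellate panels stand higher in the double knockouts than in WT. The panels of anaphase-promoting complex subunits with cohesin and of hepatocyte markers show narrow ranges (hepatocyte means from 12.07 to 12.35). A narrow range of a mean does not show that single genes were unchanged.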

How the data were processed

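RNA of 15 mouse livers, 3 in each of 5 groups, was measured on Affymetrix arrays. The values are log2 expression levels as deposited by the authors, made with RMA per the submitters' processing notes (version not given); the log base was read from the range of the values. The 35556 probe sets comprised 21789 with 1 gene symbol, 1621 with several and 12146 absent from the gene table used; the probe set with the highest mean per gene left 19938 genes. limma 3.58.1 in R 4.3.3 fitted group means over all 15 arrays, with Benjamini-Hochberg adjustment over all genes; this was tested on simulated data. Other tables came from Python 3.11.15 and figures from matplotlib 3.10.9. Each mouse has its own number, while the replicate numbers of the arrays recur in each group. Most same-numbered arrays did not deviate together (4 of 30 correlations over 0.1, from -0.39 to 0.30), so no pairing was used. Array medians lay between 4.26 and 4.38, and the number of arrays limits the precision. All 34 measured genes are described. Values per array are given for up to 3 genes per role with the highest mean and for Ttk, which passed with all 15 arrays. They are also given for Foxm1 and Kif4, in which a double knockout overlapped WT. Other lists are named by up to 4 genes past the threshold with the largest change. The genes and lists were chosen with earlier results of these data known. Alternatives covered the arrays fitted, weights, normalization, filters, a replicate block, the Xist pattern and each array left out.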

Additional observations from a re-analysis of the deposited data

How the results depend on the processing

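Counts of the 34 genes called by limma depended on which arrays were fitted. Between NEMO/Jnk1 DKO and WT, 0 passed over all 15 arrays, 30 in the fit to the arrays compared, 10 with array weights, 30 without the 2 doubted arrays and 13 when a term for the Xist pattern was added to that; leaving out 1 array gave 0 to 25, the highest without the array labelled Jnk1 KO replicate 1. Between NEMO/Jnk2 DKO and WT, 1 passed over all arrays, 30 in the fit to the arrays compared, 26 with weights, 32 without the doubted arrays, 14 with the Xist term, 31 with both, 30 without the 3 arrays of high Xist, and 0 with a trended robust prior, renewed quantile normalization or the replicate block; leaving out 1 array gave 0 to 31. Without the doubted arrays 25 passed between NEMO/Jnk1 DKO and Jnk1 KO (14 with the Xist term; 0 to 19 with 1 array left out), 28 between NEMO/Jnk2 DKO and Jnk2 KO (28), and 32 for the mean NEMO effect (31; 1 with weights, 7 without the high-Xist arrays, 0 to 31 with 1 array left out). The replicate block gave 0 calls in every comparison. Median centring, a filter on dim probe sets and a test of every probe set left the count at 1 or 0. With the Xist term over all arrays, Foxm1 (-0.0049) and Nusap1 (-0.15) turned below 0 between NEMO/Jnk1 DKO and WT; the cause was not tested. No scaling moved the median of all genes by 0.1 log2. Signal near background limits Ndc80, which was never above 3.69, and also other dim members. Ttk and Kif4 were above 3.69 on 4 of the 15 arrays, Cenpe and Nusap1 on 5, and Melk and Bub1 on 7.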

Other observations

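The lists did not rank the livers alike. The array labelled Jnk2 KO replicate 3 had a mean macrophage marker level of 6.92 and a mean stellate level of 8.22, within or above the range of the 6 double knockouts for both (6.85 to 7.53 and 7.66 to 8.12). Its mean over the 34 mitosis genes, 4.87, lay just below their range of 4.96 to 5.69, and its mean over 25 DNA replication genes, 5.07, was close to that of Jnk2 KO replicate 1, 5.04. Within NEMO/Jnk2 DKO, replicate 3 had the lowest macrophage mean, 6.85, with a mitosis mean of 5.57, and replicate 2 had the highest macrophage mean, 7.37, with the lowest mitosis mean, 4.96. Mcm6 read 7.91 in that replicate 3 and 5.87 in replicate 2. These values are single arrays and were not tested.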
